A study of Homo sapiens with 18 samples.

Results

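Integrin subunits are the transmembrane chains of the main cell receptors for extracellular matrix. The 10 described here are 7 alpha chains, ITGA1, ITGA2, ITGA3, ITGA5, ITGA6, ITGA11 and ITGAV, and 3 beta chains, ITGB1, ITGB3 and ITGB5. They were chosen by gene symbol, with earlier results of these data known, from the 30954 gene IDs counted in NCI-H2052 (H2052) cells. All 10 had a row there and in the table of NCI-H226 (H226) cells.

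H2052 is a human mesothelioma line mutant for NF2 and LATS2, and H226 is a human mesothelioma line that lacks NF2. The groups were NF1 mutant H2052 cells given VT107 or DMSO, parental H2052 cells given VT107 or DMSO, and H226 cells given VT107 or DMSO. VT107, which blocks palmitoylation of the TEAD transcription factors, was used at 1 µM for 24 h, each group had 3 libraries, and polyA RNA was sequenced. NF1, which encodes a negative regulator of RAS, was mutated with CRISPR/Cas9 in cells selected with blasticidin for Cas9 and with puromycin for the guide. The sources used here do not state whether these cells were a pool or a clone. All H2052 groups share the NF2 and LATS2 mutations. Columns of parental libraries bear a date prefix that those of NF1 mutant libraries do not, so genotype and library set cannot be told apart.

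Each integrin is a pair of 1 alpha and 1 beta chain, and the alpha chain largely sets the ligand. ITGA1, ITGA2 and ITGA11 encode the collagen-binding chains α1, α2 and α11, which pair with β1. ITGA3 and ITGA6 encode laminin-binding chains that pair with β1, and α6 also pairs with β4. ITGA5 encodes the fibronectin-binding α5 chain, and ITGAV the αV chain, which binds ligands with the peptide RGD. The beta partners of αV include β1, β3 and β5. ITGB1 is the shared partner, ITGB3 pairs with αV or the platelet chain αIIb, and ITGB5 pairs with αV. Ligand-bound integrins nucleate adhesions of talin, kindlin, vinculin and focal adhesion kinase on the actin cytoskeleton, upstream of YAP and TAZ, the coactivators that work through TEAD.

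On hg19, the collagen-binding genes ITGA1 (chromosome 5, 52083730 to 52252327, + strand) and ITGA2 (chromosome 5, 52285156 to 52390609, + strand) are neighbours, and ITGA11 lies on chromosome 15 (68594050 to 68724502, - strand). ITGA3 lies on chromosome 17 (48133332 to 48167848, + strand), ITGA6 on chromosome 2 (173292082 to 173371181, + strand), ITGA5 on chromosome 12 (54789045 to 54813244, - strand) and ITGAV on chromosome 2 (187454790 to 187545628, + strand). ITGB1 lies on chromosome 10 (33189247 to 33294720, - strand), ITGB3 on chromosome 17 (45331208 to 45421658, + strand) and ITGB5 on chromosome 3 (124480795 to 124606674, - strand). PELO, a ribosome rescue gene, lies inside ITGA1 on the same strand and had 206 and 330 counts in NF1 mutant VT107 and DMSO libraries and 755 and 761 in parental VT107 and DMSO libraries, so the split of reads between it and ITGA1 is uncertain. These are raw counts summed over libraries of unlike depth, so they are not comparable between genotypes.

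Libraries held 3285363 to 5489092 counts in NF1 mutant cells, 10950284 to 13418485 in parental cells and 1387223 to 1726786 in H226 cells. NF1 itself had 8.26 to 18.1 normalised CPM, that is, counts scaled to library size with TMM factors, in NF1 mutant libraries and 26.0 to 67.6 CPM in parental libraries. The mesothelial genes MSLN and WT1 were counted in every H2052 library at 13.0 CPM or more, whereas KRT5 was at 0 in all 12 and CALB2, which encodes calretinin, did not exceed 8.22 CPM. Both parental number 3 libraries and NF1 mutant VT107 replicate 1 stood apart from the libraries of their groups, and the values without them are given beside the called results and the larger differences that they enter. The H2052 counts lay on the strand of the gene in all 18 pairs of overlapping opposite-strand genes checked, whereas in H226 all 14 pairs had more counts on the opposite strand. H226 values are therefore not read as integrin levels.

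The sequences around the gene starts of ITGA2, ITGA11 and ITGA5 are shown because these 3 subunits were called for VT107 against DMSO in parental cells when the replicate number was in the model as a block, and ITGA2 alone by any method without it. Without both number 3 libraries ITGA2 alone of them was called. RefSeq (GRCh38.p14) gave such 300-base windows, from 250 bases before the start, for 8 of the 10 subunits, all but ITGA3 and ITGB3. Capitals mark matches, on either strand, to the TEAD motif GGAATG or the AP-1 motif TGANTCA. The windows are chr5:52989102-52989401 on the + strand for ITGA2, chr15:68432114-68432413 on the - strand for ITGA11 and chr12:54419217-54419516 on the - strand for ITGA5.
ITGA2: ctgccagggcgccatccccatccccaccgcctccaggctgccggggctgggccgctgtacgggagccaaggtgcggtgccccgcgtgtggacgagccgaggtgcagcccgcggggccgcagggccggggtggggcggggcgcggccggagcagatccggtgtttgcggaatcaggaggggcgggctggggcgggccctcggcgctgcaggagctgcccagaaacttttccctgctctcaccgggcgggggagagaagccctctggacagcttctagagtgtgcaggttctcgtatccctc
ITGA11: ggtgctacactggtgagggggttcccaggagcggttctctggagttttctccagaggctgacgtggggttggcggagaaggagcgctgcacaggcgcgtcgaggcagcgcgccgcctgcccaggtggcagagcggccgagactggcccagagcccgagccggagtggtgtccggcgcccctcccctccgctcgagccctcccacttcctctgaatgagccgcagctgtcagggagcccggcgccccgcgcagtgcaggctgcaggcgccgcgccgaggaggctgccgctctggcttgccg
ITGA5: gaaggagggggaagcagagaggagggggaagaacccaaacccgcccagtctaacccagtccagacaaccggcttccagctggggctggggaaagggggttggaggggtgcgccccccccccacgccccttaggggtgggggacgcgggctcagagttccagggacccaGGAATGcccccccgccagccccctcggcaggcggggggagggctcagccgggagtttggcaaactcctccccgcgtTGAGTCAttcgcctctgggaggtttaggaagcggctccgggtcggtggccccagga
The ITGA5 window held the TEAD letters 82 bases and the AP-1 letters 6 bases before the start, and neither motif was spelled in the ITGA2, ITGA11 or ITGA1 window. Of the 8 subunits, some with more than 1 window, 2 had the TEAD letters in a window (ITGA5 and ITGB1) and 1 the AP-1 letters, where 14.0% and 7.71% of 35116 RefSeq windows of the same length had them. A match is a description of these letters and not a binding site.

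How much of each subunit the cells carried was asked first, per kilobase of exon (RPKM) so that genes could be set side by side. In NF1 mutant DMSO libraries ITGA3 led at 111 ± 8.72 RPKM, above ITGB1 at 64.9 ± 2.32 RPKM and ITGA6 at 61.6 ± 13.6 RPKM (SD, n = 3 each), the last pair overlapping. ITGB5 (23.7 ± 2.07 RPKM) and ITGA5 (8.04 ± 0.365 RPKM) followed, each apart from the next. The collagen-binding chains were low, ITGA2 (1.34 ± 0.371 RPKM) below ITGAV (2.28 ± 0.333 RPKM) and ITGA1 at 0.349 ± 0.0874 RPKM. ITGA11 was at 0 counts in 2 of these 3 libraries and ITGB3 at 0 in all of them, which allows up to 0.547 to 0.752 CPM per library by counting error.

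In parental DMSO libraries ITGB1 stood highest at 82.7 ± 0.173 RPKM (SD, n = 3), apart from every other subunit. ITGA6 (45.0 ± 16.2 RPKM) and ITGA3 (42.8 ± 9.18 RPKM) followed and overlapped each other, then came ITGB5 (20.4 ± 4.22 RPKM) and ITGA5 (7.49 ± 4.87 RPKM). The collagen-binding chains were again among the lower subunits, since ITGA2 (2.55 ± 0.846 RPKM) overlapped ITGAV (2.53 ± 0.469 RPKM), ITGA1 had 0.803 ± 0.169 RPKM, and ITGA11 (0.16 ± 0.084 RPKM) overlapped ITGB3 (0.181 ± 0.285 RPKM).

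With VT107 the neighbours in the order were harder to separate. In NF1 mutant VT107 libraries ITGA3 (211 ± 184 RPKM), ITGB1 (68.0 ± 27.8 RPKM), ITGA6 (45.9 ± 27.9 RPKM), ITGB5 (26.3 ± 4.64 RPKM) and ITGA5 (17.8 ± 10.8 RPKM) each overlapped the next. ITGA2 stood apart at 6.47 ± 1.36 RPKM, above ITGAV at 3.15 ± 0.716 RPKM and ITGA1 at 0.301 ± 0.096 RPKM (SD, n = 3 each). In parental VT107 libraries ITGB1 stood apart at 94.1 ± 4.55 RPKM, while ITGA3, ITGA6, ITGB5, ITGA5 and ITGA2 formed an overlapping run between means of 43.9 and 9.61 RPKM. ITGA1 (1.22 ± 0.598 RPKM), ITGA11 (0.65 ± 0.468 RPKM) and ITGB3 (0.51 ± 0.806 RPKM) overlapped at the low end.

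VT107 was compared with DMSO in parental cells to ask which subunits move when TEAD is inhibited, and the collagen-binding α2 chain had the smallest p of them. ITGA2 had 61.9, 42.7 and 123 CPM in parental VT107 libraries 1 to 3, against 18.9, 14.1 and 27.4 CPM in parental DMSO libraries 1 to 3. The groups did not overlap, and number 3 was highest in both. In such bulk RNA, fewer cells of a type and less RNA per cell cannot be told apart. Within the replicate numbers ITGA2 was 3.27, 3.02 and 4.5 times higher with VT107, although the level differed between numbers.

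ITGA11, the α11 chain known mainly from fibroblasts, had 4.31, 3.93 and 12.9 CPM in parental VT107 libraries, against 1.68, 0.861 and 2.68 CPM in parental DMSO libraries. These groups did not overlap either, and all counts were low, 44 to 179 per VT107 library and 12 to 30 per DMSO library. The third collagen-binding gene, ITGA1, had 17.7, 15.0 and 35.5 CPM in VT107 libraries and 15.2, 11.6 and 17.9 CPM in DMSO libraries, which overlapped. The fourth collagen-binding chain, ITGA10, was not above 8 counts in any H2052 library.

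**Figure D1:**
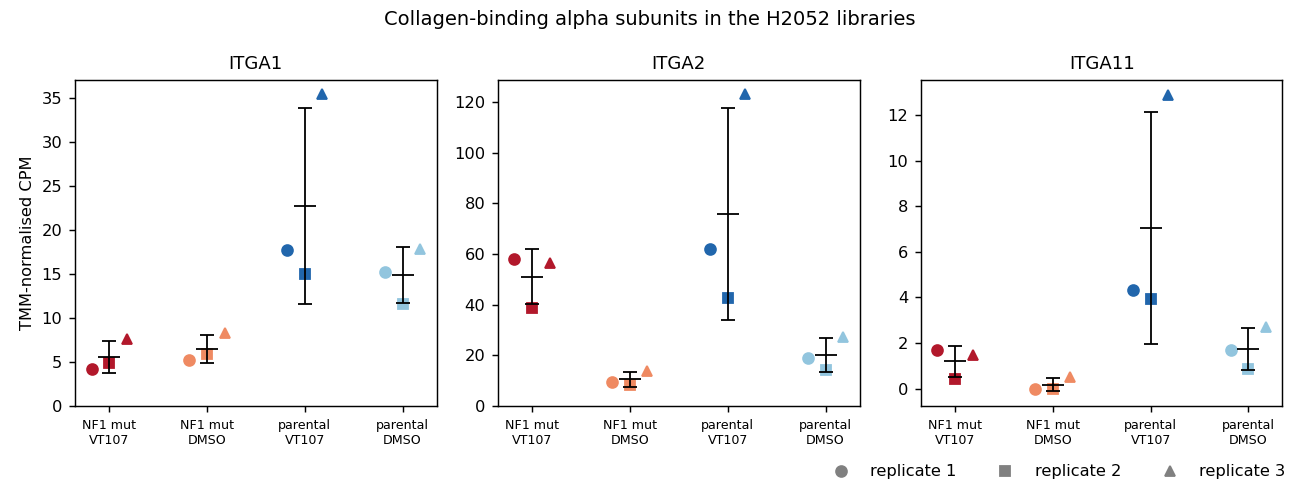
TMM-normalised CPM (y axis, linear) of ITGA1, ITGA2 and ITGA11 in each H2052 library, with NF1 mutant and parental groups under VT107 and DMSO on the x axis, marker shape for the replicate number, and the mean with SD in black. ITGA2 in VT107 libraries (38.7 CPM or more) lay above all DMSO libraries (27.4 CPM or less) in both genotypes, and parental number 3 was highest for each gene.

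In edgeR's quasi-likelihood test over 12891 genes, without the replicate number in the model, none of the 9 subunits tested passed an adjusted p of 0.05, and nor did any other gene (0%). At an unadjusted p under 0.05 stood 474 genes, 3.68% of those tested, ITGA2 and ITGA11 among them. DESeq2 called 32 genes (0.248%) and voom with quality weights 18 (0.14%), and ITGA2 was the 1 subunit that each of them called. Parental libraries with the same number deviated together from their group means, with correlations of 0.613, 0.488 and 0.795, so the numbers were also used as a block.

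With the replicate block, 3 of the 9 subunits rose and none fell, where 1.67% of all genes passed, 0.846% upwards and 0.822% downwards. The members were chosen with earlier results of these data known, so this count is not a test against that share. Of the 5 other integrin subunits tested, none rose and 1, ITGB2, fell. ITGA2 rose by 1.85 ± 0.133 on the log2 scale (SE, edgeR adjusted p = 0.000618), number 2 of 12891 genes by p. ITGA11 rose by 1.96 ± 0.29 (edgeR adjusted p = 0.0167), and ITGA5, the fibronectin receptor chain, by 0.71 ± 0.144 (edgeR adjusted p = 0.0445). Without both number 3 libraries, ITGA2 was called with the block (log2 1.69, adjusted p = 0.00452) and without it (log2 1.70, adjusted p = 0.0197), whereas ITGA11 (log2 1.76, adjusted p = 0.171 with the block) and ITGA5 (log2 0.49, adjusted p = 0.195 with the block) were not. ITGA5 was also not called with the block when both number 1 libraries were left out (log2 0.83, adjusted p = 0.0944).

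Set against the rest, the 3 collagen-binding chains tested had a median log2 change of 1.85 with the block, which is the value of ITGA2. The 6 others ranged from -0.24 (ITGA6) to 0.71 (ITGA5). The median was 0.40 over all 9 subunits, these 3 included, and 0.004 over all genes. Of the collagen-binding chains 2 of 3 were called, against 1 of the 6 others. ITGA1 had a log2 change of 0.55 ± 0.171 with the block (edgeR adjusted p = 0.137). The difference between the 2 sets was not tested.

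ITGA5 had 50.0, 47.4 and 218 CPM in VT107 libraries and 37.0, 34.0 and 99.3 CPM in DMSO libraries, so that the spread between numbers exceeded the change within them. ITGAV had 22.8, 20.8 and 40.1 CPM with VT107 and 18.9, 18.2 and 25.2 CPM with DMSO, and a log2 change of 0.40 ± 0.136 with the block (edgeR adjusted p = 0.175). Its partner ITGB5 had 119, 132 and 236 CPM with VT107 and 117, 115 and 163 CPM with DMSO, and a log2 change of 0.27 ± 0.119 (edgeR adjusted p = 0.275 with the block).

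ITGB1, the partner of the collagen-binding chains, had 596, 542 and 559 CPM in VT107 libraries and 497, 498 and 496 CPM in DMSO libraries. These groups did not overlap, as for ITGA2 and ITGA11, and 4.37% of all genes tested were likewise higher without overlap, and 6.13% lower. The change of ITGB1 was small, 0.20 ± 0.116 on the log2 scale, and was not called (edgeR adjusted p = 0.404 with the block). The laminin-binding ITGA3 and ITGA6 had log2 changes of 0.04 ± 0.12 and -0.24 ± 0.147 (edgeR adjusted p = 0.898 and 0.434 with the block).

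**Figure D2:**
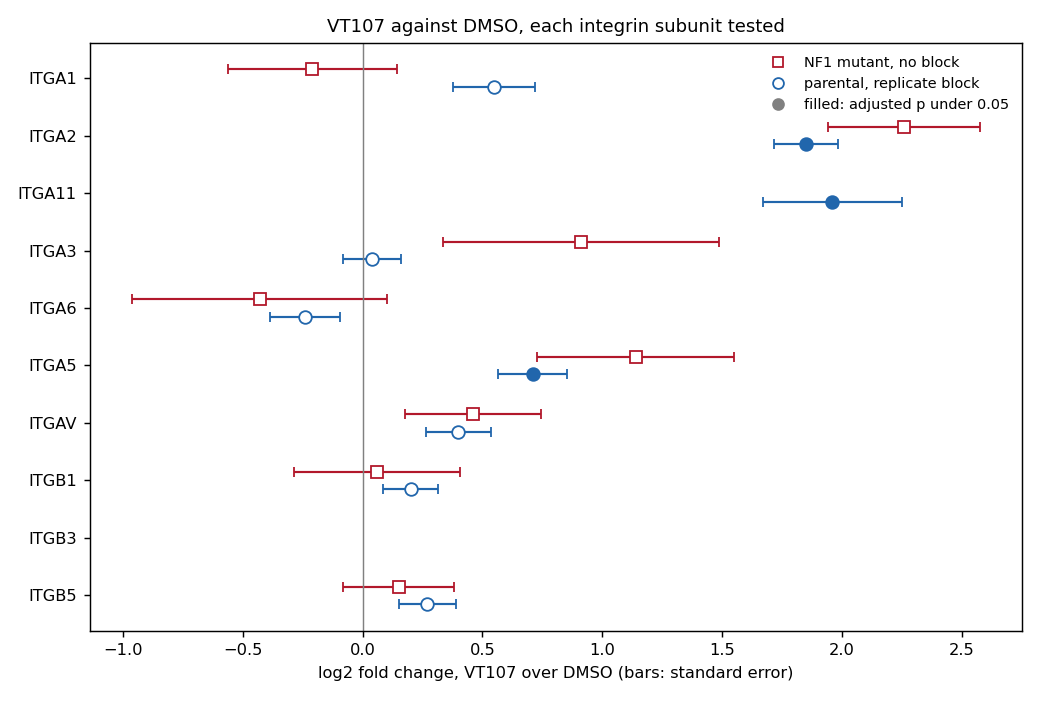
Log2 fold change of VT107 over DMSO (x axis) with its standard error for each integrin subunit tested (y axis), in NF1 mutant cells without the block (squares) and in parental cells with the replicate block (circles), filled where the adjusted p was under 0.05. ITGA2 was the subunit near 2 in both genotypes, at 2.26 and 1.85, and ITGB3, as well as ITGA11 in NF1 mutant cells, fell below the count filter.

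In NF1 mutant cells the same comparison gave ITGA2 at 58.1, 38.7 and 56.5 CPM in VT107 libraries, against 9.66, 8.33 and 13.9 CPM in DMSO libraries. The groups lay far apart for this gene, at a log2 change of 2.26 ± 0.317 (SE, edgeR unadjusted p = 0.000141, number 5 of 11605 genes by p). No gene passed the adjusted threshold (0%, with 612 genes or 5.27% at an unadjusted p under 0.05), and the adjusted p of ITGA2 was 0.303. Without VT107 replicate 1, which stood apart, edgeR called 198 genes, and ITGA2 was the 1 subunit among them (log2 2.17, adjusted p = 0.000102). With all 6 libraries DESeq2 called 20 genes (0.172%) and voom with quality weights 147 (1.27%), and in each ITGA2 was again the 1 subunit called (adjusted p = 1.58e-06 and 6.68e-05).

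ITGA11 was close to the counting limit in these cells, with 6, 2 and 5 counts in VT107 libraries and 0, 0 and 2 in DMSO libraries. The ratio of summed CPM was 7.34, with a counting interval of 1.66 to 67.0 (95%, exact binomial), which covers counting error only. ITGA1 had 4.27, 4.87 and 7.62 CPM with VT107 and 5.19, 5.92 and 8.29 CPM with DMSO, and a log2 change of -0.21 ± 0.354. Over the 8 subunits tested the median log2 change was 0.31, against 0.022 over all genes.

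ITGA5 had 230, 82.3 and 92.3 CPM in NF1 mutant VT107 libraries and 58.7, 64.0 and 60.0 CPM in DMSO libraries. Like ITGA2 it was higher without overlap, as were 7.63% of the genes tested, but its log2 change of 1.14 ± 0.411 was not called (edgeR adjusted p = 0.774). Without VT107 replicate 1 the change of ITGA5 was 0.52 (adjusted p = 0.0663). That library alone held 4121 CPM of ITGA3, against 1363 and 723 CPM in VT107 replicates 2 and 3, and 91.2 CPM of ITGA6, against 430 and 379 CPM there. ITGB1 was lowest in it too, at 217 CPM, with 524 and 486 CPM in the other VT107 libraries. None of these passed the test, with log2 changes of 0.91 ± 0.576 for ITGA3, -0.43 ± 0.533 for ITGA6 and 0.06 ± 0.347 for ITGB1. Without that library the log2 change of ITGA3 was -0.06. ITGAV (29.1, 29.4 and 19.0 CPM with VT107, 19.9, 15.6 and 20.7 CPM with DMSO) and ITGB5 (163, 203 and 144 CPM with VT107, 150, 167 and 141 CPM with DMSO) overlapped between groups, with log2 changes of 0.46 ± 0.284 and 0.15 ± 0.233. ITGB3 was at 0 in all 6 libraries.

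Whether the VT107 response differed between NF1 mutant and parental cells was tested as an interaction over 11432 genes, and no gene passed (0% in edgeR, DESeq2 and voom with quality weights, with 78 genes or 0.682% at an unadjusted p under 0.05 in edgeR). For ITGA2 the difference of log2 changes was 0.35 ± 0.552 (95% interval -0.85 to 1.55), an interval that spans a smaller and a much larger response in NF1 mutant cells. For ITGA1 it was -0.82 ± 0.532 (95% interval -1.98 to 0.33). The replicate block, which here also pairs NF1 mutant libraries, gave narrower intervals. With it the difference was 0.45 ± 0.31 for ITGA2 (95% interval -0.27 to 1.16) and -0.75 ± 0.358 for ITGA1 (95% interval -1.58 to 0.07). Without the block the difference was 0.88 ± 0.684 for ITGA3, -0.28 ± 0.77 for ITGA6, 0.25 ± 0.863 for ITGA5, 0.04 ± 0.423 for ITGAV, -0.12 ± 0.392 for ITGB1 and -0.15 ± 0.393 for ITGB5. ITGA11 and ITGB3 were below the count filter, and a p that misses the threshold does not show that the genotypes responded alike.

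The effect on the make-up of the alpha chains was described by the share of each ligand class in the summed RPKM of the 7 alpha genes, which does not depend on the scaling between libraries. Collagen-binding chains took 1.63%, 2.32% and 5.0% of the sum in NF1 mutant VT107 libraries, against 0.804%, 0.766% and 1.19% in NF1 mutant DMSO libraries. They took 7.17%, 5.95% and 18.4% in parental VT107 libraries, against 2.94%, 2.27% and 5.85% in parental DMSO libraries. In both genotypes the VT107 libraries lay above the DMSO libraries, and every NF1 mutant DMSO library lay below every parental one. A share also moves with the other chains, such as ITGA3 at 111 RPKM in NF1 mutant and 42.8 RPKM in parental DMSO libraries. Alpha genes outside the 7, such as ITGAE at 3.2 to 3.74 RPKM in NF1 mutant DMSO libraries, are not in the sum.

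ITGA2 made up most of the collagen-binding sum in every library, 92.9% or more of it in NF1 mutant VT107 libraries, 76.8% to 81.4% in NF1 mutant DMSO libraries, 82.2% to 85.3% in parental VT107 libraries and 71.0% to 74.1% in parental DMSO libraries. The laminin-binding ITGA3 and ITGA6 held the largest share throughout, 85.5% or more except in parental number 3. That number had 48.5% with VT107 and 73.9% with DMSO, and 33.2% and 20.3% of RGD-binding ITGA5 and ITGAV.

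**Figure D3:**
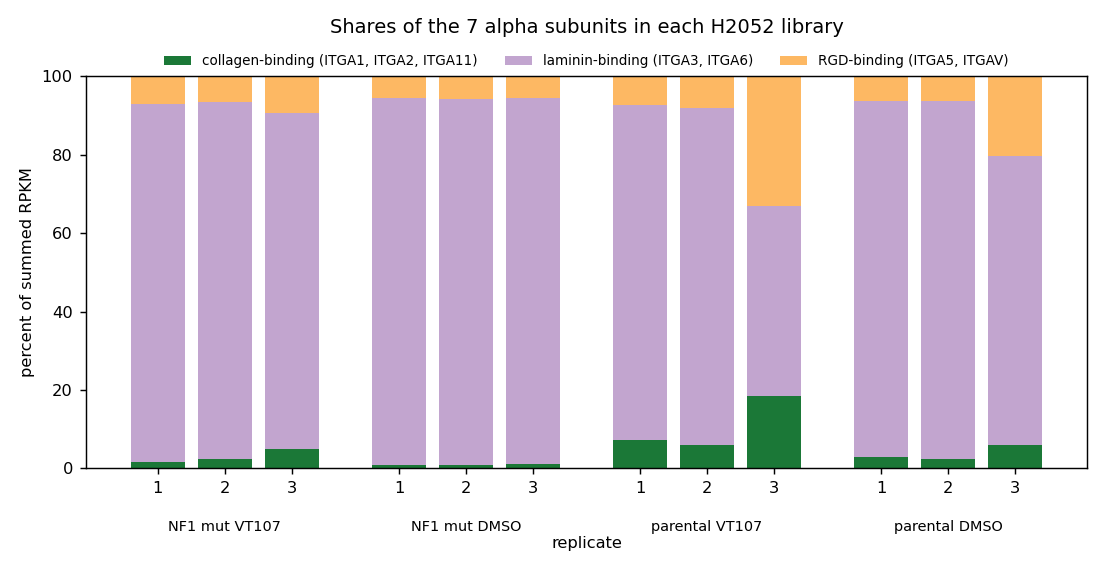
Percent of the summed RPKM of 7 integrin alpha genes (y axis) held by collagen-, laminin- and RGD-binding chains in each H2052 library (x axis, replicates within groups). The collagen-binding share was 1.63% to 5.0% and 5.95% to 18.4% in NF1 mutant and parental VT107 libraries, and 0.766% to 1.19% and 2.27% to 5.85% in NF1 mutant and parental DMSO libraries.

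NF1 mutant cells were then compared with parental cells in DMSO, where 27.4% of 12475 genes were called, 12.5% upwards and 14.9% downwards, and 3 of 8 subunits passed, 1 upwards and 2 downwards. ITGA3 was higher, with 1045, 1191 and 1033 CPM in NF1 mutant libraries, against 494, 445 and 320 CPM in parental libraries, a log2 difference of 1.40 ± 0.161 (SE, edgeR adjusted p = 6e-04). It was called under each library left out in turn. The collagen-binding ITGA1 was lower, at 5.19, 5.92 and 8.29 CPM against 15.2, 11.6 and 17.9 CPM, with a log2 difference of -1.20 ± 0.265 (edgeR adjusted p = 0.011), which was not called without NF1 mutant DMSO replicate 1 or 2.

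ITGB1 was lower by a small margin, at 375, 401 and 396 CPM in NF1 mutant libraries and 497, 498 and 496 CPM in parental libraries (log2 -0.33 ± 0.102, edgeR adjusted p = 0.0401). Its call did not hold with the replicate block (edgeR adjusted p = 0.0786), nor in all fits with a library left out. ITGA2 just missed the threshold at a log2 difference of -0.92 ± 0.299 (edgeR adjusted p = 0.0504), and DESeq2, with 29.6% of genes called, called it (adjusted p = 0.0211). In DMSO, then, ITGA1, ITGA2 and ITGB1, with ITGA11 untested, were lower without overlap and ITGA3 higher without overlap, as were 22.6% and 21.8% of all genes. ITGA6, ITGA5, ITGAV and ITGB5 did not pass, at log2 differences of 0.47 ± 0.267, 0.11 ± 0.381, -0.14 ± 0.205 and 0.23 ± 0.17. The share of subunits called was near that of all genes, and the median difference was -0.01 over the 8 subunits and -0.015 over all genes.

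The count of called subunits depended on the libraries. Without parental DMSO replicate 3, ITGA2 (log2 -0.63), ITGA5 (0.80) and ITGB5 (0.41) were called besides the 3, making 6. In that fit 6409 of 12585 genes were called, so the rise came with many more calls among all genes. In a fit with the 2 VT107 groups added, none was called.

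ITGA11 and ITGB3 were below the count filter in NF1 mutant cells. ITGA11 had 0, 0 and 2 counts in NF1 mutant DMSO libraries against 21, 12 and 30 in parental DMSO libraries, a ratio of CPM of 0.0826 (95% counting interval 0.00979 to 0.311). ITGB3 was at 0 in all 6 NF1 mutant libraries. In parental cells ITGB3 had 3, 2 and 88 counts with VT107 and 0, 2 and 25 with DMSO, so number 3 held nearly all of it. Against the floor of 3 counts per group, ITGB3 was at least 9.85-fold lower in NF1 mutant than in parental cells with VT107 and at least 3.46-fold lower with DMSO, both of which rest on parental number 3. Without it ITGB3 had 5 counts in parental VT107 libraries (0.194 CPM, against a floor of 0.242 CPM in NF1 mutant VT107 libraries) and 2 counts in parental DMSO libraries (0.0784 CPM, against a floor of 0.214 CPM in NF1 mutant DMSO libraries), and no fold is given.

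**Figure D4:**
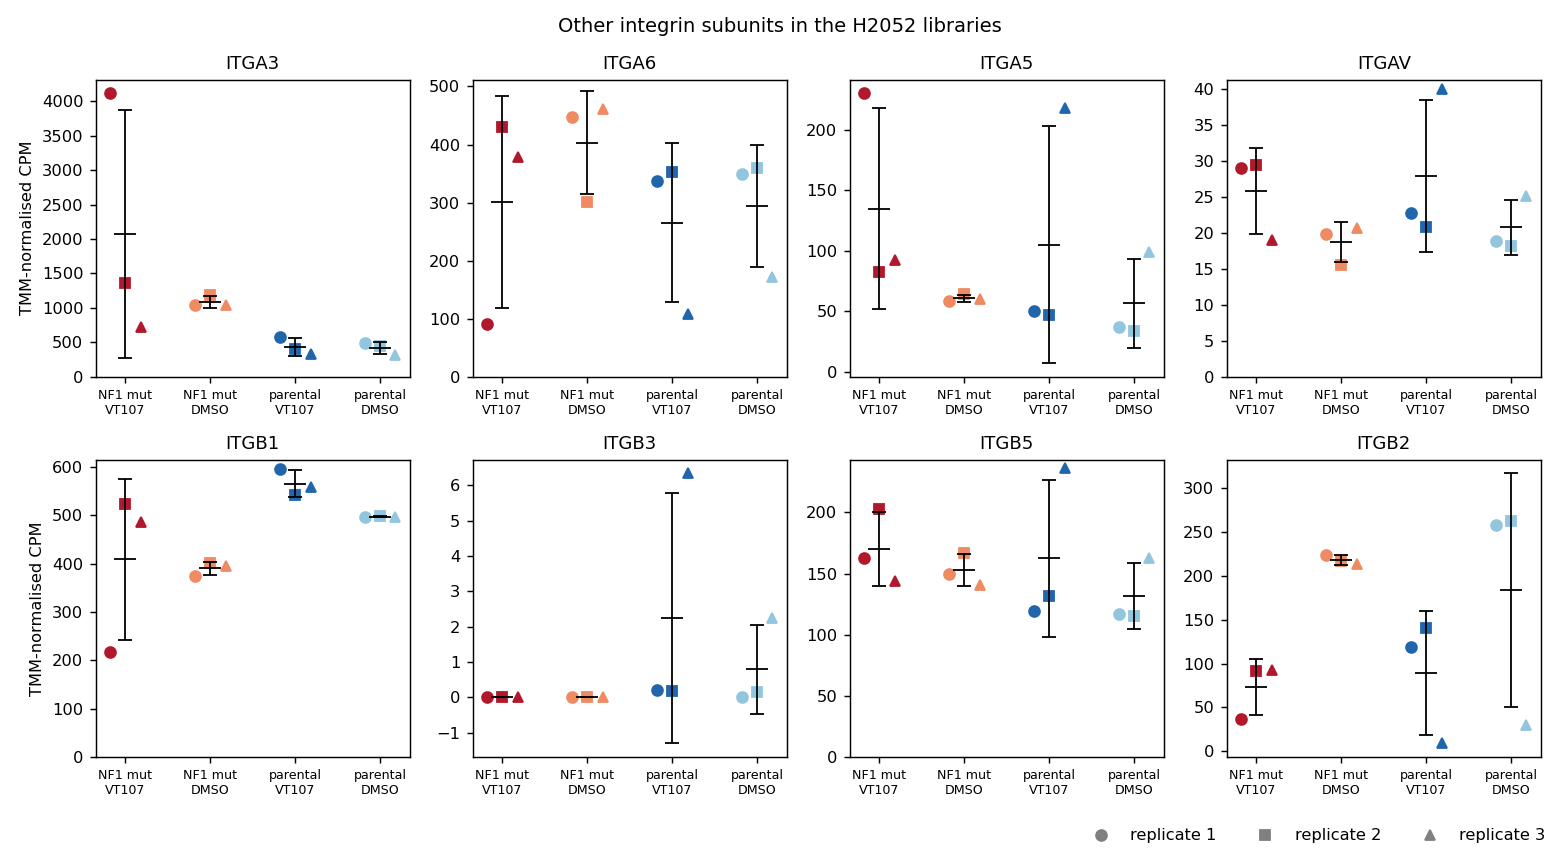
TMM-normalised CPM (y axis, linear, one scale per panel) of the laminin- and RGD-binding alpha chains, the 3 beta chains and ITGB2 in each H2052 library, with groups on the x axis, marker shape for the replicate number and mean with SD in black. ITGA3 was highest in NF1 mutant VT107 replicate 1 (4121 CPM), and ITGB3 was counted above 3 reads only in the 2 parental number 3 libraries.

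Under VT107 the same genotypes differed by a log2 value of 2.24 ± 0.629 for ITGA3 and -2.05 ± 0.474 for ITGA1 (SE). ITGA3 had 4121, 1363 and 723 CPM in NF1 mutant libraries and 568, 402 and 322 CPM in parental libraries, and ITGA1 had 4.27, 4.87 and 7.62 CPM against 17.7, 15.0 and 35.5 CPM. Neither gene overlapped between genotypes, where 11.4% of genes were higher and 14.1% lower without overlap. ITGB1, and ITGA11 untested, were also lower without overlap. For ITGB3, also untested, the lack of overlap is not readable. Parental libraries 1 and 2 had 0.212 and 0.179 CPM, below the 0.624 to 0.913 CPM that 0 counts allow in these NF1 mutant libraries. No gene of 11654 was called by edgeR (0%, with 1945 or 16.7% at an unadjusted p under 0.05), and the adjusted p was 0.153 for ITGA3 and 0.109 for ITGA1. Without NF1 mutant VT107 replicate 1 the ITGA3 difference was 1.27 (edgeR adjusted p = 0.111). DESeq2, which called 682 genes (5.85%), called ITGA1 and ITGA3, and voom with quality weights, which called 3599 (30.9%), called these and ITGA5. ITGA2 had 58.1, 38.7 and 56.5 CPM in NF1 mutant libraries and 61.9, 42.7 and 123 CPM in parental libraries under VT107, which overlapped (log2 -0.59 ± 0.437, edgeR adjusted p = 0.521). The log2 difference was 0.16 ± 0.627 for ITGA6, 0.33 ± 0.669 for ITGA5, -0.13 ± 0.39 for ITGAV, -0.48 ± 0.392 for ITGB1 and 0.05 ± 0.369 for ITGB5.

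**Figure D5:**
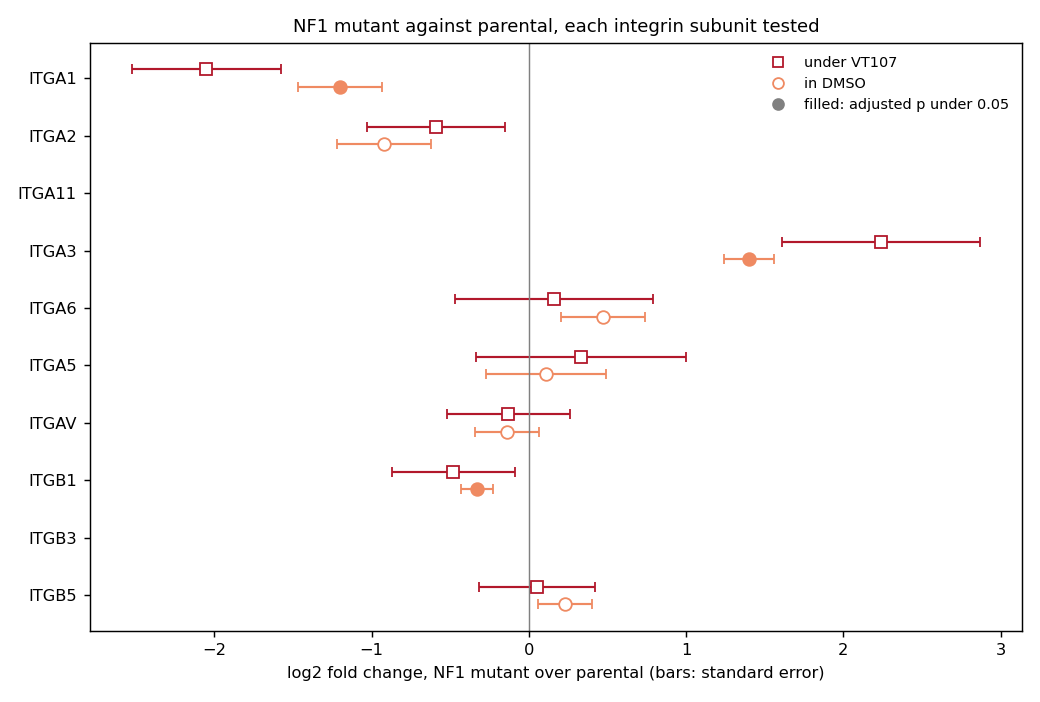
Log2 fold change of NF1 mutant over parental cells (x axis) with its standard error for each integrin subunit tested (y axis), under VT107 (squares) and in DMSO (circles), filled where the adjusted p was under 0.05. ITGA3 lay to the right at 2.24 and 1.40, and ITGA1 to the left at -2.05 and -1.20, with the DMSO values called.

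Of the 16 other integrin subunits with a row, 5 passed the filter in parental cells. ITGB2, the β2 chain otherwise restricted to leukocytes, fell by 1.19 on the log2 scale with VT107 and the block (SE 0.154, edgeR adjusted p = 0.00834), at 119, 141 and 8.94 CPM with VT107 and 258, 263 and 30.0 CPM with DMSO. Without the block its adjusted p was 0.999, and number 3 was far below the other numbers in both groups. Without both number 3 libraries the change of ITGB2 was -0.97 with the block (edgeR adjusted p = 0.0485) and -0.97 without it (edgeR adjusted p = 0.0345). In NF1 mutant cells ITGB2 had 36.5, 91.1 and 93.1 CPM with VT107 and 224, 217 and 213 CPM with DMSO, without overlap, as were 8.27% of genes downwards, at a log2 change of -1.57 ± 0.376 that was not called (edgeR adjusted p = 0.774). Without VT107 replicate 1 it was called, at -1.24 (edgeR adjusted p = 8.55e-05). Its leukocyte alpha partners ITGAL and ITGAM had at most 6 counts in any library and ITGAX at most 30, and PTPRC, which defines leukocytes, had 3 counts in 1 library and 0 in the others. The summed level of 8 leukocyte markers was 2.64 to 3.7 CPM in NF1 mutant VT107 libraries and 1.79 to 1.97 CPM in NF1 mutant DMSO libraries. It was 1.16 to 9.44 CPM in parental VT107 libraries and 0.79 to 7.6 CPM in parental DMSO libraries, with 3 of the 8 at 0 in all 12 libraries, and its part in the ITGB2 values was not tested.

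The other 4 of these subunits in parental cells, ITGA4, ITGA7, ITGAE and ITGB4, did not pass, with ITGA4 at a log2 change of -0.35 ± 0.277, ITGA7 at 0.43 ± 0.216, ITGAE at 0.16 ± 0.187 and ITGB4, the partner of α6, at 0.15 ± 0.376 with the block.

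The ligands and partners of the integrins were read in parental cells with the block, where 1.67% of all genes were called. With all parental libraries and no block, no gene of these lists was called. Among 11 collagen chains tested, COL6A3, a chain of collagen VI, rose by 1.04 ± 0.109 (SE, edgeR adjusted p = 0.00423), and the median over the list was 0.41 against 0.004 over all genes. Among 10 laminin chains, LAMB3 rose by 0.87 ± 0.11 and LAMA4 by 0.72 ± 0.117 (edgeR adjusted p = 0.00803 and 0.0237). Among 10 RGD and matricellular ligands, CTGF fell by 1.39, CYR61 by 1.13 and THBS1 by 1.04 (edgeR adjusted p = 0.00423, 0.0167 and 0.00646). CTGF and CYR61 are also classical YAP/TAZ-TEAD targets, and all 5 genes of that class listed, with AMOTL2, ANKRD1 and F3, fell. Without both number 3 libraries, COL6A3 (log2 1.04, edgeR adjusted p = 0.0323), CTGF (-1.17, 0.0255), THBS1 (-0.89, 0.0485), ANKRD1 (-1.71, 0.0255) and F3 (-0.94, 0.0463) were still called with the block. LAMB3 (log2 0.92, edgeR adjusted p = 0.0604), LAMA4 (0.74, 0.144), CYR61 (-0.86, 0.0868) and AMOTL2 (-0.86, 0.0534) were not. With the number 3 libraries left out and no block, LAMB3 and CYR61 were called (edgeR adjusted p = 0.0299 and 0.035). LAMA4 and AMOTL2 were again not called (edgeR adjusted p = 0.106 and 0.0752).

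None of the 26 genes tested of the adhesion complex (talins, kindlins, vinculin, paxillin, focal adhesion kinase and others) was called with VT107 in parental cells, with a median of 0 on the log2 scale. None of 8 lateral partners such as the tetraspanins, of 3 inhibitors and of 3 non-integrin collagen receptors was called either.

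Between genotypes in DMSO more of these genes differed, beside a background of 27.4%. DDR2, the collagen receptor tyrosine kinase, had 1.25 to 3.66 CPM in NF1 mutant libraries and 11.5 to 24.8 CPM in parental libraries, a log2 difference of -3.07 ± 0.425 (SE, edgeR adjusted p = 0.00139), whereas DDR1 had 0.43 ± 0.153 (edgeR adjusted p = 0.0644). COL6A3 was lower in NF1 mutant cells (log2 -2.51 ± 0.383, edgeR adjusted p = 0.00216). Chosen after their values were seen, COL4A2 was lower too (log2 -1.39 ± 0.175) and COL1A1 higher (log2 0.72 ± 0.16). Of 26 adhesion complex genes 4 were higher and 6 lower, and 2 of them, again chosen after their values were seen, were PXN, which encodes paxillin, at a log2 difference of 0.97 ± 0.106 and LIMS1, a partner of integrin-linked kinase, at -1.63 ± 0.148. Without parental DMSO replicate 3, 6409 of 12585 genes were called, so a call there is common. These 6 genes kept their direction and their call in that fit. The log2 differences were -3.38 for DDR2, -1.88 for COL6A3, -1.20 for COL4A2, 0.86 for COL1A1, 0.93 for PXN and -1.58 for LIMS1. DDR1 was called as well (0.45, edgeR adjusted p = 0.0117).

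Across the 12 H2052 libraries, the genes whose log2 CPM was most correlated with a collagen-binding chain were ATP2B4, TMEM156 and ANPEP for ITGA2 (Pearson r = 0.956, 0.952 and 0.943), SAT1, TNPO3 and RBM6 for ITGA1 (0.946, 0.945 and 0.943), and RP11-366L20.2, ZNF618 and P2RX4 for ITGA11 (0.962, 0.947 and 0.946). These are the highest of 11431 coefficients for ITGA1 and ITGA2 and 11432 for ITGA11, which was itself under the count filter. The libraries differ in genotype, treatment and depth, so genes that differ between these groups correlate for that alone. The coefficients are descriptions only.

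In H226 the counts named for the subunits lay on the opposite strand, and 12765 genes were tested, of which 19.6% were called. ITGA11 was the 1 subunit called of 10 (log2 -1.69 ± 0.591, edgeR adjusted p = 0.0463), on 3, 2 and 2 counts in VT107 libraries and 4, 5 and 11 in DMSO libraries, and it was not called by DESeq2 (14% of genes called) or voom with quality weights (21.3%). ITGA2 had 28, 21 and 15 counts with VT107 and 13, 21 and 17 with DMSO on that strand. The log2 change was 0.10 ± 0.327 for ITGA2 and -0.43 ± 0.179 for ITGA1 (edgeR adjusted p = 0.1). It was -0.24 ± 0.154 for ITGA3, 0.03 ± 0.209 for ITGA6, 0.22 ± 0.384 for ITGA5 and 0.47 ± 0.176 for ITGAV (edgeR adjusted p = 0.0644). Of the beta chains, ITGB1 had 0.24 ± 0.167, ITGB3 0.32 ± 0.391 and ITGB5 0.21 ± 0.248.

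Annotated genes on the strand opposite to a subunit were also read. They were chosen after their values were seen, as the 4 genes with at least 100 counts over the H226 DMSO libraries. Since H226 counts lay on the opposite strand in all 14 pairs checked, counts under these names are taken as reads of the subunit's strand. They are not read as levels of the named genes. RP11-753H16.5, opposite to ITGA5, had 130, 181 and 170 counts in H226 VT107 libraries and 98, 127 and 161 in H226 DMSO libraries. The overlapping RP11-753H16.3 had nearly the same H226 counts. RP11-753H16.5 had 0 counts in all 12 H2052 libraries, where counts lay on the strand of the gene, so the lines are not compared for it. AC017101.10, opposite to ITGAV, had 295, 356 and 378 counts with VT107 and 233, 270 and 261 with DMSO. AC093818.1, opposite to ITGA6, had 209, 199 and 222 counts with VT107 and 143, 224 and 213 with DMSO. None of the 3 passed the test (log2 0.09 ± 0.203, 0.21 ± 0.154 and -0.12 ± 0.171, edgeR adjusted p = 0.823, 0.391 and 0.703), and no such gene with enough counts lay opposite to a collagen-binding chain.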

How the data were processed

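PolyA RNA was sequenced on a NextSeq500. The submitters' notes name bcl2fastq (2.20.0.422) and hg19, while aligner, counting program, annotation and kit were not given there or in the study's methods. For every gene the authors deposited unnormalised read counts. The p-value and log2 fold change columns of the H226 table are those of the authors' own comparison, per the file headers, and were not used. A further 16 sample columns matched no described sample and are not analysed here. Counts of repeated IDs were summed.

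Genes reaching 0.5 CPM in all libraries compared were retained, scaled by TMM and tested with edgeR 4.0.16 (glmQLFit, R 4.3.3), two-sided, with Benjamini-Hochberg adjustment over all genes tested and a threshold of 0.05. Per-library CPM are TMM-scaled over all 12 H2052 or 6 H226 libraries. RPKM divide these CPM by the union of exons in GENCODE 29, matched on the Ensembl ID. Each standard error is the size of the log2 change divided by the root of its F, and fold changes of listed genes were described beside the median of all genes. DESeq2 1.42.0 and limma 3.58.1 (voom with quality weights) were alternatives, with another scaling, 2 other filters, the replicate block and left-out libraries. Parental libraries of the same number were treated as paired because each of the 3 correlations of their deviations was above 0.1, while no other comparison met this. Numbers 1 and 2 also correlated with each other (0.607 and 0.517), and number 3 stood apart from both (-0.716 to -0.59). The fits were tested on simulated data. The study gives its replicates as biological, and p-values measure the spread between these libraries.

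All 10 subunits are named in every comparison, with other integrin subunits at 0.5 CPM or more in every H2052 library. From each list of ligands and partners, up to 4 genes with the smallest p in the blocked parental comparison are named, as are the 3 genes most correlated with each collagen-binding chain tested. ITGA10 was left out of that because it had too few counts, and ITGB4 was named after its values were seen. Members and lists were chosen with earlier results of these data known.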

Additional observations from a re-analysis of the deposited data

How the results depend on the processing

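Tests with few libraries and low depth limit these results: ITGA11 and ITGB3 rest on few counts, genotype and library set cannot be told apart, and number 3 of the parental libraries and NF1 mutant VT107 replicate 1 decide several values. The causes of the changes below were not tested. The 3 alternatives that use the block without parental number 1, without parental number 2 or without NF1 mutant VT107 replicate 1 were chosen after seeing the data, as were the left-out libraries for ITGB2, the ligands and the partners.

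For VT107 in parental cells, where edgeR called 0 subunits and 0 genes, DESeq2 called 1 subunit (of 32 genes), voom with quality weights 1 (of 18), and leaving out both number 3 libraries 1 without the block (of 44 genes) and 1 with it (of 27). The replicate block called 3 subunits of 215 genes, 2 of 51 without both number 1 libraries and 6 of 1168 without both number 2 libraries. Leaving out 1 library gave 0 subunits each time. For VT107 in NF1 mutant cells, DESeq2 called 1 subunit (of 20 genes), voom with quality weights 1 (of 147), and leaving out 1 library 0 to 1 (of 0 to 198 genes), while the fit of all 4 groups called 3 genes and 0 subunits. Between genotypes in DMSO (3 subunits of 3420 genes), voom with quality weights called 6 (of 6554), the fit of all 4 groups 0 (of 918) and left-out libraries 1 to 6 (of 1779 to 6409). Between genotypes under VT107 (0 of 0), DESeq2 called 2 (of 682), voom with quality weights 3 (of 3599), the fit of all 4 groups 2 (of 1275), no filter 0 (of 196) and left-out libraries 0 (of 0 to 184). For H226 (1 of 2501), DESeq2, no filter and voom with quality weights each called 0. The replicate block called 3 (of 3257 among 12765 genes tested), and left-out libraries 0 to 2 (of 1646 to 2218 genes). The interaction called 0 throughout.

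Same-numbered libraries were not treated as paired outside the parental comparison. There the replicate block called 0 subunits for VT107 in NF1 mutant cells, under VT107 between genotypes and in the interaction. In DMSO it called ITGA2 (log2 -0.89, adjusted p = 0.0193) and no longer ITGB1 (adjusted p = 0.0786), with 2986 genes in all, and it turned ITGB1 for VT107 in NF1 mutant cells to -0.035.

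Sign changes in log2 fold change, none of them called, were these. With voom and quality weights, VT107 in NF1 mutant cells gave 0.042 for ITGA1 and -0.197 for ITGA3, ITGAV gave 0.043 in DMSO and 0.014 under VT107 between genotypes, the interaction gave -0.301 for ITGA3, 0.039 for ITGA6 and 0.133 for ITGB1, and H226 gave -0.012 for ITGA6. In the interaction with the block and without NF1 mutant VT107 replicate 1, ITGA3 was -0.184, ITGA6 0.365, ITGA5 -0.212 and ITGB1 0.152, and without parental number 3 ITGB5 was 0.042, or 0.032 with the block. ITGA3 in parental cells was -0.053 with the block and without number 1.

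Left-out libraries turned the sign within these ranges. For VT107 in parental cells they were -0.392 to 0.242 for ITGA6, -0.187 to 0.218 for ITGA3, -0.225 to 1.618 for ITGA5 and -0.062 to 0.53 for ITGB5. For VT107 in NF1 mutant cells they were -0.494 to 0.0 for ITGA1, -0.059 to 1.319 for ITGA3, -0.781 to 0.011 for ITGA6, -0.158 to 0.376 for ITGB1 and -0.001 to 0.255 for ITGB5. Between genotypes in DMSO they were -0.168 to 0.796 for ITGA5 and -0.239 to 0.03 for ITGAV, and under VT107 -0.104 to 0.42 for ITGB5, -0.283 to 1.452 for ITGA5, -0.212 to 0.609 for ITGA6 and -0.306 to 0.23 for ITGAV. In the interaction they were -0.425 to 1.361 for ITGA5, -0.129 to 0.393 for ITGAV, -0.332 to 0.219 for ITGB5, -0.103 to 1.29 for ITGA3, -0.654 to 0.151 for ITGA6 and -0.341 to 0.183 for ITGB1. In H226 they were -0.118 to 0.285 for ITGA2, -0.039 to 0.167 for ITGA6 and -0.129 to 0.418 for ITGB5.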
